A study of Mus musculus with 121 samples.

Results

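Secondary granule genes of the neutrophil lineage were followed through single bone marrow progenitors to see which of them appeared in most cells and which cells held only some of them. The set had 10 genes, taken by name: Camp, Ngp, Ltf, Lcn2, Chil3, Fcnb, Cd177, Itgb2l, Hp and Pglyrp1, of 23946 genes measured. All 10 were found in the expression table. The labels call 46 cells CD11b+ GMP-P and 75 cells GMP. Both came from C57BL/6 animals with the Gfi1 allele R412X, and the genotype is given as Gfi1-R412X/- in 1 field and as HTZ in another. Marrow was enriched on CD117 beads, sorted, captured on the Fluidigm C1 chip and amplified with SMARTer chemistry. CD11b is an integrin chain carried by maturing myeloid cells. No cell with unmutated Gfi1 was analysed here, so no value below measures an effect of the mutation, and neither animal age nor the number of animals is given in the labels.

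Neutrophils build their granules in waves as they mature. Primary granules with myeloperoxidase and elastase are filled first, in promyelocytes, and secondary granules with lactoferrin and cathelicidin follow in myelocytes. The transcription factor C/EBP epsilon, encoded by Cebpe, is needed for much of the secondary granule program, and Gfi1 is a zinc finger repressor needed for neutrophil differentiation. Among the 10 genes, Ltf encodes lactoferrin, which binds iron, Lcn2 a lipocalin that captures bacterial iron carriers, and Hp haptoglobin, which binds free hemoglobin. Camp encodes the cathelicidin antimicrobial peptide, Ngp a cystatin-related granule protein and Pglyrp1 a protein that recognises bacterial cell wall. Chil3 encodes a chitinase-like lectin and Fcnb the complement-activating lectin ficolin B. Cd177 encodes a neutrophil surface glycoprotein and Itgb2l an integrin beta chain.

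Each cell carried a state name given by the authors, such as Mono, Gran-1 or Myelo-2. Those names were given to these same cells, so differences between states are a description of the annotation and not a test of it. The labels also carried a run name. The CD11b+ GMP-P cells shared 1 such name, the CD11b+ GMP-P run. Among GMP cells, 13 had 1 of 2 names dated late July (10 and 3 cells, pooled here as late July GMP) and 62 had an undated one (other GMP). The name of the CD11b+ GMP-P run is a string of digits that can be read as the date of the late July names, so these cells may share a date. Every comparison of CD11b+ GMP-P with GMP cells thus crosses run names, and the 2 kinds of difference cannot be told apart. In this gene set the 13 late July GMP cells stood apart from the other cells of their label. The 10 genes took a median of 6.24% of all TPM in the CD11b+ GMP-P run. The median was 24.4% in the late July GMP cells, against 0.0977% for the remaining GMP cells, so results are given within each of these 3 sets of cells. The authors gave the late July GMP cells states from Gran-1 to Myelo-4, the Myelo ones being shared with CD11b+ GMP-P and seen in no other GMP cell. Whether their population label is right was not tested, so they are no second reading of GMP. The authors' values were log2(TPM + 1), TPM being an abundance per transcript length that sums to the same total in every cell. It keeps no record of read number, so sequencing depth per cell was unknown; the labels give only a read total planned per library. A gene was counted as held by a cell at 1 TPM or more, and a second reading at 100 TPM or more is given for the main counts. With no animal named, each population was counted as 1 sample, and no p-value was computed. Means are given ± SD over cells, which is the spread of single cells and not a replicate error.

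The regions just upstream of the genes are shown for members with contrasting patterns below, Pglyrp1 and Lcn2 among those found in most cells and Camp, Ngp and Ltf among those missing from nearly all or all other GMP cells. RefSeq (GRCm38.p6, another build than the mm9 of the submitters' processing notes) had an upstream entry for 9 of the 10 genes, and Hp was the other. Each sequence is the 250 bases before the annotated start, written 5′ to 3′ on the gene's strand. Capitals mark matches to TTNNGNAA, a C/EBP-type pattern read on both strands. Pglyrp1 lies at chr7:18884440-18884689 on the plus strand, Lcn2 at chr2:32387740-32387989 on the minus strand, Camp at chr9:109849457-109849706 on the minus strand, Ngp at chr9:110419558-110419807 on the plus strand and Ltf at chr9:111019042-111019291 on the plus strand.
Pglyrp1: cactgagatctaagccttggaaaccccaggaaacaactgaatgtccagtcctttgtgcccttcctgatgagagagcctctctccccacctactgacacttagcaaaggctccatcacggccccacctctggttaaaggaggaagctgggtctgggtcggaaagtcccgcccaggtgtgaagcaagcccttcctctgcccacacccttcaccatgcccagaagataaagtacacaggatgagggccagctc
Lcn2: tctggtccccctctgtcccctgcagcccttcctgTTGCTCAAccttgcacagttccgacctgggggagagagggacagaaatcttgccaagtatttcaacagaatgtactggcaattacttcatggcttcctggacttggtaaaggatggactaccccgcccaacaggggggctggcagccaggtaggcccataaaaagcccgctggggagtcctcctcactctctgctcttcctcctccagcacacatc
Camp: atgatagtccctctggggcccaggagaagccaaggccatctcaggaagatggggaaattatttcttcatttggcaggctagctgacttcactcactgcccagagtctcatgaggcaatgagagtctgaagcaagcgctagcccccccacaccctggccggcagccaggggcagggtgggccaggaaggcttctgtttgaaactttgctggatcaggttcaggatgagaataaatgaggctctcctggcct
Ngp: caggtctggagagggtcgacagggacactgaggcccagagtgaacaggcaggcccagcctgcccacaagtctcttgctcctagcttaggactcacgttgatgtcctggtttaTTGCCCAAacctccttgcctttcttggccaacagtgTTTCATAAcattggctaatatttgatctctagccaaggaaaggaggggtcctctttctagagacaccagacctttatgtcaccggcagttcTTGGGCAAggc
Ltf: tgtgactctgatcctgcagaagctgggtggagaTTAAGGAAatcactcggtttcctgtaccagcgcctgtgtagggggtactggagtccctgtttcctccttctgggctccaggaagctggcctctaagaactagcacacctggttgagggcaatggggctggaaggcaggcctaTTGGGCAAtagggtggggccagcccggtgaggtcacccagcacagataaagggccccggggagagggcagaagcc

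The C/EBP-type pattern was in 7 of the 9 upstream windows (Ngp, Ltf, Lcn2, Chil3, Fcnb, Cd177 and Itgb2l) and in 36.8% of all 32851 upstream windows of that length. No match was found in the windows of Pglyrp1 and Camp. Counted back from the annotated start, matches began at −138, −102 and −11 in Ngp, at −217 and −75 in Ltf and at −216 in Lcn2. A PU.1-type pattern, AGGAAGT, was in the windows of Chil3, Fcnb and Itgb2l and in 7.69% of all windows. The letters TATAAA were in the window of Cd177 and in 12.4% of all, and a Gfi1-type pattern, AAATCNC, was in that of Ltf, where it overlapped a C/EBP-type match, and in 10.3% of all. These matches are letters in a window and not binding sites. Camp, Ngp and Ltf all lie on chromosome 9, with 8 coding genes between Camp and Ngp and 20 between Ngp and Ltf in RefSeq.

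In the 62 other GMP cells the genes came in a steep order. Hp was held by 57 cells (91.9%, 95% exact binomial interval 82.2 to 97.3%), Pglyrp1 by 41 (66.1%, 53 to 77.7%) and Lcn2 by 35 (56.5%, 43.3 to 69%). Fcnb was held by 12 cells, Chil3 by 7 and Camp by 1. Ngp, Ltf, Cd177 and Itgb2l were listed at 0 in all 62 cells, so that shares up to 4.84% for each gene could have been missed. These intervals and limits cover counting error only. At 100 TPM or more the order was the same, with Hp in 54 cells, Pglyrp1 in 29, Lcn2 in 17, Fcnb in 5 and Chil3 in 3, and the other 5 genes in none.

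**Figure D1:**
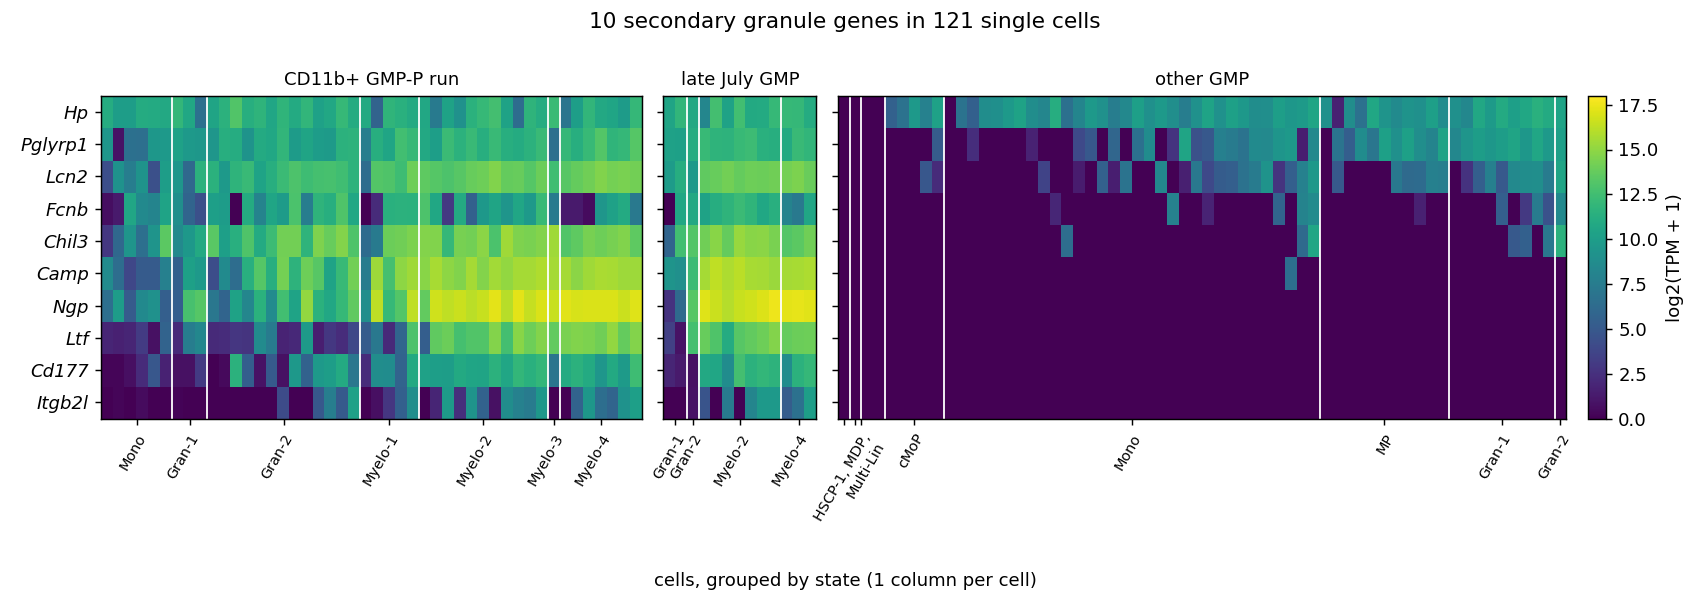
Level of the 10 genes (rows, log2(TPM + 1)) in each cell (columns), with the CD11b+ GMP-P run at the left, late July GMP in the middle and other GMP at the right, and cells grouped by state. The darkest squares are at 0. The 4 lowest rows, Ngp, Ltf, Cd177 and Itgb2l, are dark in all 62 other GMP cells, where Hp is lit in 57.

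Cells of the other GMP run mostly followed 1 nested order. A pair of genes is discordant in a cell when the cell held one and not the other. Of 1045 such cases over the 45 pairs, 1031 (98.7%) had the gene found in more cells, and 14 had the rarer gene alone. Since the order was read from the same cells, that share is high by construction and is a description. Ngp, Ltf, Cd177 and Itgb2l were at 0 in every cell, so any case with them could only go with the order. Hp and Ngp alone gave 57 such cases. At 100 TPM the share was 801 of 810 cases, with Camp in no cell either. At 1 TPM no cell held any member without Hp, while at 100 TPM 1 MP cell held Pglyrp1 without Hp. Pglyrp1 without Lcn2 was seen in 11 cells and Lcn2 without Pglyrp1 in 5, so this pair had the most contrary cells. Fcnb without Chil3 was seen in 7 cells and Chil3 without Fcnb in 2.

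The cells that held only part of the set at 1 TPM made up a few combinations. No member was held by 5 other GMP cells: the HSCP-1 cell, the MDP cell, both Multi-Lin cells and 1 Mono cell. Hp alone was held by 9 cells (5 Mono, 3 cMoP and 1 MP). Hp and Pglyrp1 were held together, with no other member, by 10 cells (5 Mono, 4 MP and 1 Gran-1). Hp and Lcn2 without Pglyrp1 were held by 5 cells (4 Mono and 1 cMoP). The commonest combination was Hp, Pglyrp1 and Lcn2, in 18 cells (9 Mono, 5 MP, 3 Gran-1 and 1 cMoP). Adding Fcnb gave 5 cells, and adding both Fcnb and Chil3 gave 5 more, which were 2 Gran-1, 2 Mono and the single Gran-2 cell. Of the 62 other GMP cells, 52 held an unbroken run of members from the top of the order, the 5 empty cells included, and no cell held more than 5 members. At 100 TPM 55 cells held an unbroken run, among them 21 with Hp alone and 7 with none.

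A few cells broke the order. The 1 cell with Camp was a Mono cell with 91.5 TPM of Camp, 812.4 TPM of Pglyrp1, 741.2 TPM of Hp and 42.9 TPM of Lcn2, and with Fcnb, Chil3 and Ngp listed at 0. Another Mono cell had Hp at 100.8 TPM and Chil3 at 87.4 TPM and no other member. Another had Fcnb at 245.0 TPM beside Hp at 473.8 TPM and Pglyrp1 at 5.19 TPM, without Lcn2. Each was a single case.

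Across the states of the other GMP run the median number of members per cell at 1 TPM was 1 in cMoP, 2 in Mono, 3 in MP, 4 in Gran-1 and 5 in the single Gran-2 cell. At 100 TPM it was 1 in cMoP, 1 in Mono, 2 in MP, 3 in Gran-1 and 5 in the Gran-2 cell. Ranges at 1 TPM overlapped: cMoP cells held 1 to 3 members, Mono cells 0 to 5, MP cells 1 to 4 and Gran-1 cells 2 to 5. Pglyrp1 had the widest gap between Gran-1 and Mono. In 9 Gran-1 cells it ran from 324.6 TPM through a median of 799.5 TPM to 1603 TPM, and in 32 Mono cells from 0 through a median of 9.96 TPM to 1461 TPM. Gran-1 cells were thus never without it, while 12 of 32 Mono cells were under 1 TPM, and the ranges overlapped above 324.6 TPM.

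Gran-1 minus Mono differences in the other GMP run were taken on mean log2(TPM + 1), a scale that understates the change of low genes, over genes that reached 1 TPM in 10% or more of the cells of a state. A difference of 2 or more, which is a 4-fold change of well detected genes, was called. Of the 10 members, 5 passed that filter, through these same cells, and 2 were higher in Gran-1 by 2 or more: Pglyrp1 by 5.82 and Lcn2 by 2.95. The Lcn2 call ended with a pseudocount of 10 (1.77) and with the log2 ratio of mean TPM (1.22). Over all 10243 genes kept, 3.18% were higher by 2 or more and 1.02% lower, and no member was lower. Hp (1.51), Chil3 (1.24) and Fcnb (1.21) lay above 0 without reaching the threshold. For Chil3 and Fcnb the sign turned with the log2 ratio of mean TPM, to −1.15 and −0.10. The highest Chil3 value was 136.6 TPM in Gran-1 and 1574 TPM in Mono, and the highest Fcnb value 181.9 TPM in Gran-1 and 404.8 TPM in Mono. Gran-1 minus MP gave 2 of 5 members kept, Lcn2 (2.42) and Fcnb (2.13), beside 5.94% of all genes higher and 1.5% lower. A pseudocount of 10 ended both of these calls, and the ratio of mean TPM ended that of Lcn2 (1.51) and brought in Chil3 (4.63). Fcnb was at 1 TPM or more in 1 of 11 MP cells and Chil3 was at 0 in all 11. Both were thus kept through Gran-1 alone and could not have been called lower. The monocyte progenitor list went the other way: 7 of its 11 genes kept were lower in Gran-1 than in Mono by 2 or more. Its summed level was 594.6 to 1467 TPM in Gran-1 cells and 1052 to 6690 TPM in Mono cells. Higher in Gran-1 than in Mono by 2 or more were 2 of 3 macrophage genes kept and 2 of 5 basophil and mast genes. Macrophage genes summed to 1.75 to 724.6 TPM in Gran-1 cells and 0 to 152.2 TPM in Mono cells. Against MP, 2 of 3 macrophage genes kept and the 1 B lineage gene kept were higher by 2 or more. Lower than in MP by 2 or more were 4 of 12 monocyte progenitor genes and 1 of 6 basophil and mast genes. The part of these lists in the result was not tested.

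**Figure D2:**
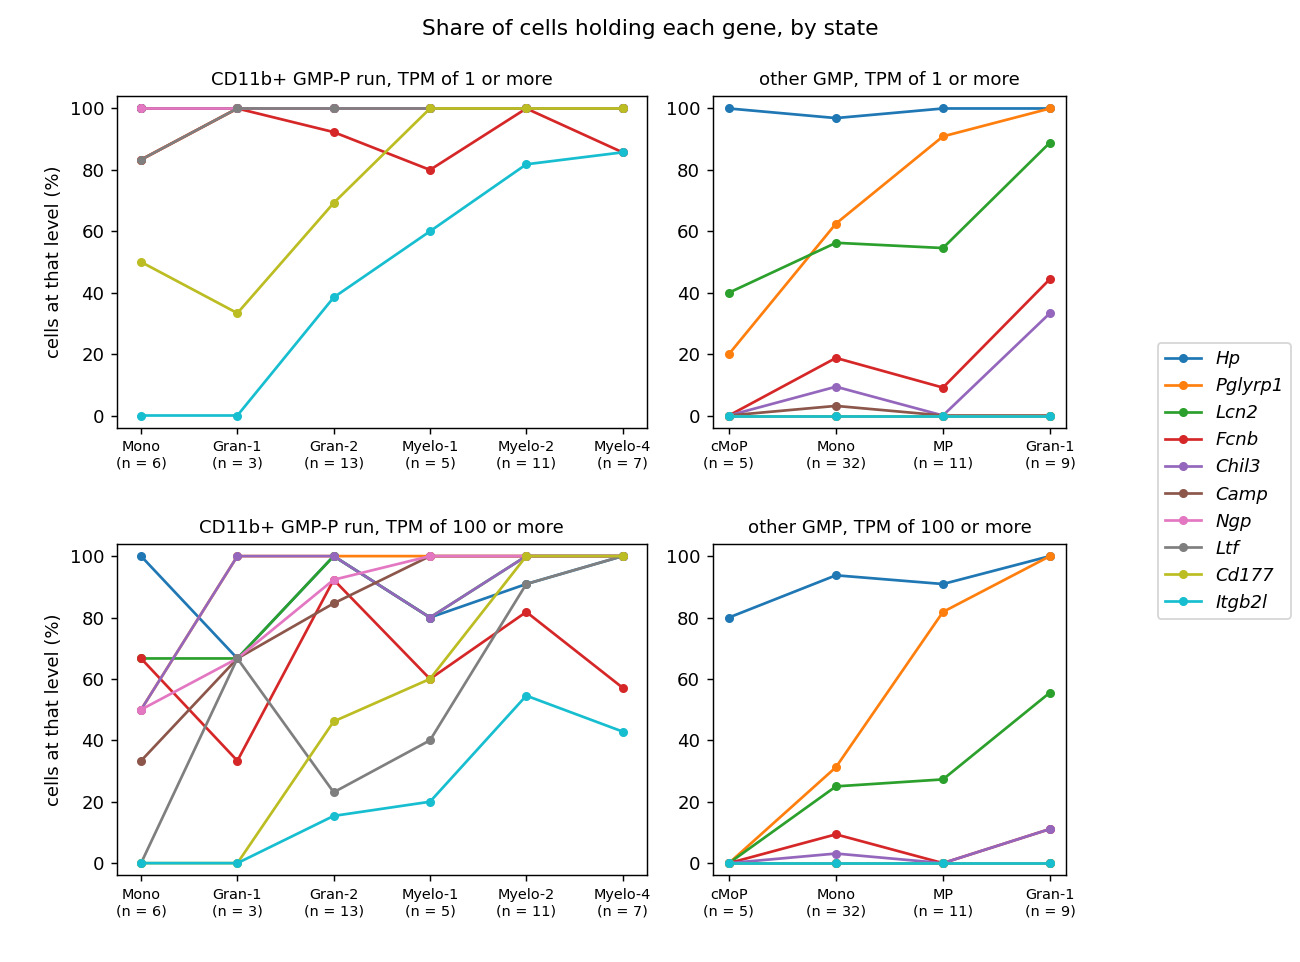
Share of cells (%) at 1 TPM or more (top) and at 100 TPM or more (bottom) for each gene by state, with the CD11b+ GMP-P run at the left and other GMP at the right. Lines join states for reading and states with 1 or 2 cells are left out. At 1 TPM Camp and Ngp stand at 100% in every state of the CD11b+ GMP-P run, and at 100 TPM Ltf is at 23.1%, Cd177 at 46.2% and Itgb2l at 15.4% of Gran-2 cells.

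Reference genes of the path were read by the number of members held at 1 TPM in other GMP cells, as mean log2(TPM + 1). Cebpe was 0 in the 5 cells with no member, 0.50 in the 9 cells with 1, 1.49 in the 17 cells with 2, 1.73 in the 19 cells with 3, 3.46 in the 7 cells with 4 and 5.12 in the 5 cells with 5. Gfi1 was 1.46, 1.69, 4.37, 6.23, 7.69 and 7.20 over the same classes, and Irf8, a factor of the monocyte and dendritic lineage, was 3.98, 7.85, 7.14, 5.17, 6.37 and 5.25. Mpo, the myeloperoxidase gene, had a mean of 13.41 to 14.37 with 1 or more members and 9.08 with none, and Elane, the neutrophil elastase gene, 13.37 to 14.83 and 10.50. Cells holding Hp alone already had means of 13.50 for Mpo and 13.37 for Elane. The median number of detected genes was 4455 to 5056 with 1 or more members and 3392 with none.

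In the CD11b+ GMP-P run the same genes were nearly all present at 1 TPM. Camp, Ngp, Lcn2, Chil3 and Hp were held by all 46 cells, Ltf and Pglyrp1 by 45, Fcnb by 42, Cd177 by 37 and Itgb2l by 23. The lowest value in any cell was 34.9 TPM for Ngp and 13.5 TPM for Camp, the 6 Mono cells included. Over all genes, Camp and Ngp were the 2 that stood at 1 TPM or more in every CD11b+ GMP-P cell and in at most 5% of other GMP cells. Within the 6 Mono cells the ratio of Ngp to Camp ran from 0.180 to 15.4, while the ratio of the run's mean levels was 2.25. Whether a low level shared by the cells of 1 run bears on these counts was not tested, and the reading at 100 TPM follows for this run.

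At 100 TPM or more Hp was held by 43 of 46 CD11b+ GMP-P cells, Chil3, Lcn2 and Pglyrp1 by 42 each, Ngp by 41, Camp by 39, Fcnb by 34, Cd177 by 28, Ltf by 25 and Itgb2l by 12. The exact intervals of the first 6 genes overlapped (82.1 to 98.6% for Hp, 71.1 to 93.7% for Camp). The interval of Itgb2l (14.3 to 41.1%) lay below that of Cd177 (45.4 to 74.9%), whereas that of Ltf (39 to 69.1%) overlapped it. All genes were read in the same cells of a single run, so these intervals cannot decide an order. Every pair of the first 6 genes had cells with either gene alone. For example, 7 cells held Hp without Camp and 3 held Camp without Hp. All 12 cells with Itgb2l also held Cd177, and 16 held Cd177 without Itgb2l. Ngp without Ltf was seen in 16 cells and Camp without Ltf in 14, and no cell held Ltf without Ngp or without Camp. Cd177 without Ltf was seen in 8 cells and Ltf without Cd177 in 5. Fcnb was the least nested: 17 cells held it without Ltf and 8 held Ltf without it. In all, 585 of 676 discordant cases (86.5%) went with the order and 91 against it, the order being read from these same cells.

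Which cells held part of the set depended on the state. At 100 TPM or more the median number held in the CD11b+ GMP-P run was 4 in Mono, 6 in Gran-1, 8 in Gran-2, 7 in Myelo-1, 9 in Myelo-2 and 9 in Myelo-4. The 6 Mono cells held 3 to 6 members in 6 different combinations, all with Hp, none with Ltf, Cd177 or Itgb2l. Gran-2 cells held 6 to 9 and never all 10, and lacked Ltf in 10 of 13 cells. All 10 members were held by 6 cells (3 Myelo-2, 2 Myelo-4 and 1 Myelo-1), and the commonest incomplete set, lacking Itgb2l alone, by 6 others (4 Myelo-2 and 2 Myelo-4). A further 3 cells (2 Myelo-2 and 1 Myelo-4) lacked Fcnb alone, and 2 Gran-2 cells lacked Ltf alone. At 1 TPM or more all 10 members were held by 21 of 46 CD11b+ GMP-P cells, by 8 of 13 late July GMP cells and by none of 62 other GMP cells. Over all cells of the 3 sets, 87 held part of the set, 29 all of it and 5 none. At 100 TPM these counts were 102, 12 and 7.

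**Figure D3:**
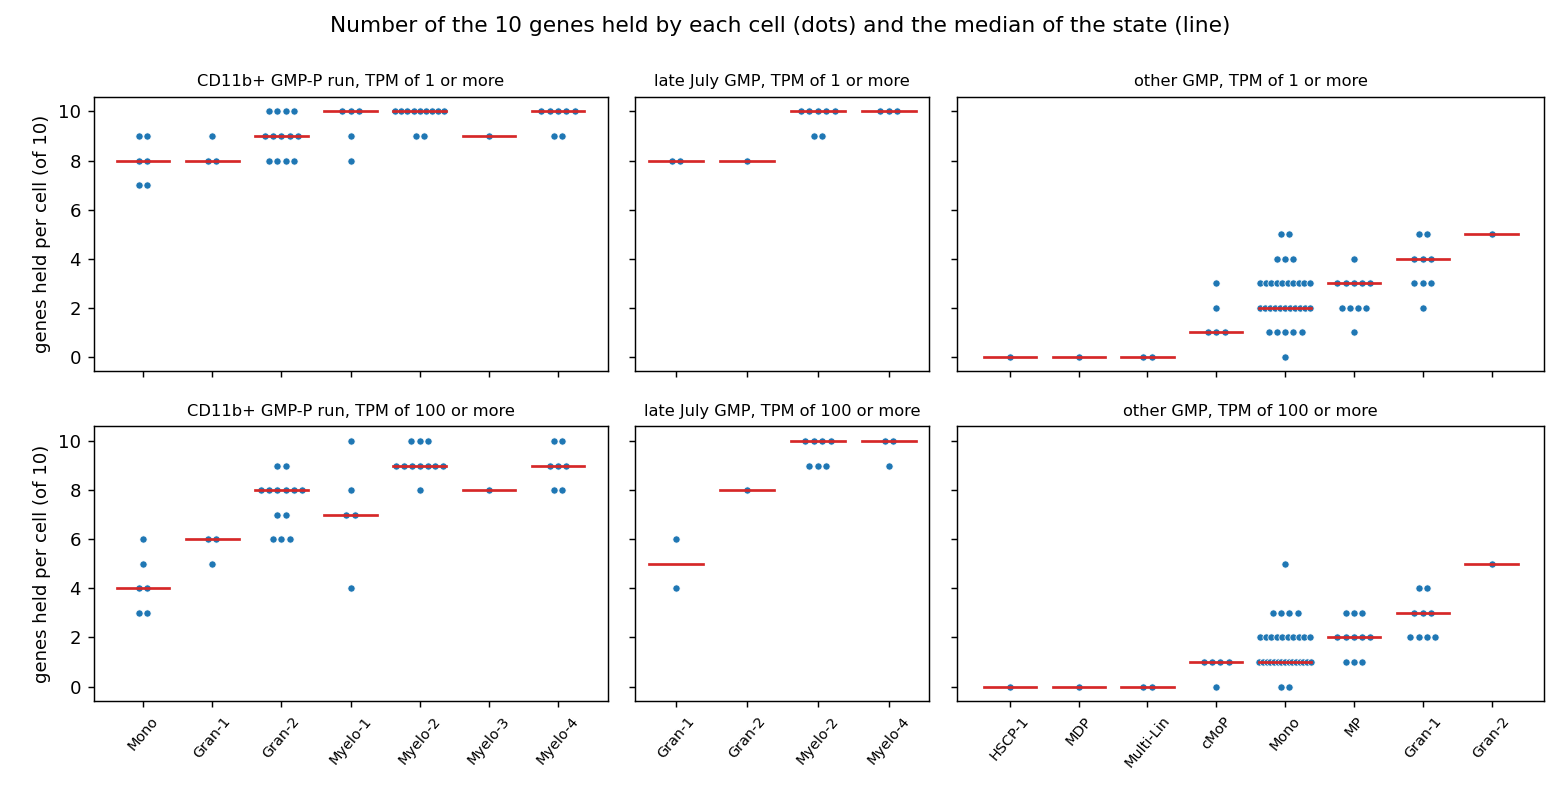
Number of the 10 genes held by each cell (dots) and the median of each state (red line), at 1 TPM or more (top) and 100 TPM or more (bottom), with the CD11b+ GMP-P run at the left, late July GMP in the middle and other GMP at the right. No other GMP cell holds more than 5 genes, and at 100 TPM the CD11b+ GMP-P medians run from 4 in Mono to 9 in Myelo-4.

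The share of all TPM taken by the 10 members in the CD11b+ GMP-P run had a median of 0.370% in Mono, 1.18% in Gran-1, 3.12% in Gran-2, 7.55% in Myelo-1, 18.4% in Myelo-2 and 24.7% in Myelo-4. TPM has a fixed total, so a larger share for these transcripts leaves a smaller one for all others. The median number of detected genes was 4434 in Mono, 3463 in Gran-1, 3760 in Gran-2, 2504 in Myelo-1, 2261 in Myelo-2 and 1642 in Myelo-4, and its part in the values below was not tested. The median difference over all genes kept was −0.43 for Gran-2 minus Mono, −0.59 for Myelo-1 minus Gran-2, −0.83 for Myelo-2 minus Gran-2 and −0.42 for Myelo-4 minus Myelo-2.

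Gran-2 was set against Mono within the CD11b+ GMP-P run first. Of the 10 members, all kept, 8 were higher in Gran-2 by 2 or more and none lower, beside 2.5% of 9211 genes higher and 12.1% lower. Camp ran from 18.1 TPM through a median of 3168 TPM to 19344 TPM in 13 Gran-2 cells, and from 13.5 TPM through 61.1 TPM to 415.9 TPM in 6 Mono cells, a difference of 4.96. Chil3 ran from 1158 TPM through 8405 TPM to 26212 TPM in Gran-2 cells and from 6.49 TPM through 358.6 TPM to 11535 TPM in Mono cells, a difference of 4.92. Both genes overlapped between the states, Chil3 through 1 Mono cell at 11535 TPM. Lcn2 (4.40), Cd177 (4.28), Pglyrp1 (3.47), Ngp (3.14), Fcnb (3.14) and Itgb2l (2.36) were the other 6. Itgb2l was at most 0.44 TPM in Mono cells, so it was kept through Gran-2 alone and could not have been called lower. Ltf (1.37) and Hp (0.69) did not reach the threshold. The ratio of mean TPM brought in Ltf (3.29) and ended the Fcnb call (1.97), and a pseudocount of 10 ended that of Itgb2l (1.29). Hp was already at 1014 to 2261 TPM in Mono cells, against 1264 to 8662 TPM in Gran-2 cells. All 10 monocyte progenitor genes kept were lower in Gran-2 by 2 or more, with a median difference of −4.65, and their summed level was 2.67 to 2234 TPM in Gran-2 cells and 1984 to 5362 TPM in Mono cells. Of 3 macrophage genes kept, 2 were higher in Gran-2 by 2 or more, with a median difference of 3.83, and the list summed to 0 to 1094 TPM in Gran-2 cells and 0 to 209.2 TPM in Mono cells. The part of either list in the result was not tested.

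The 3 Gran-1 cells of the CD11b+ GMP-P run stood between these states in members held. Their Ngp levels were 40.5, 6909 and 9677 TPM and their Ltf levels 3.47, 197.6 and 327.9 TPM. The same 2 cells were high for both genes, and for Camp, at 1217 and 798.2 TPM against 43.95 TPM in the other cell. Of 9 members kept, 4 were higher in Gran-1 than in Mono by 2 or more: Ltf (3.55), Ngp (3), Pglyrp1 (2.71) and Camp (2.26). The Pglyrp1 call ended with the ratio of mean TPM (1.18). Over all 9144 genes 8.74% were higher and 19.5% lower, with only 3 cells in 1 state.

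**Figure D4:**
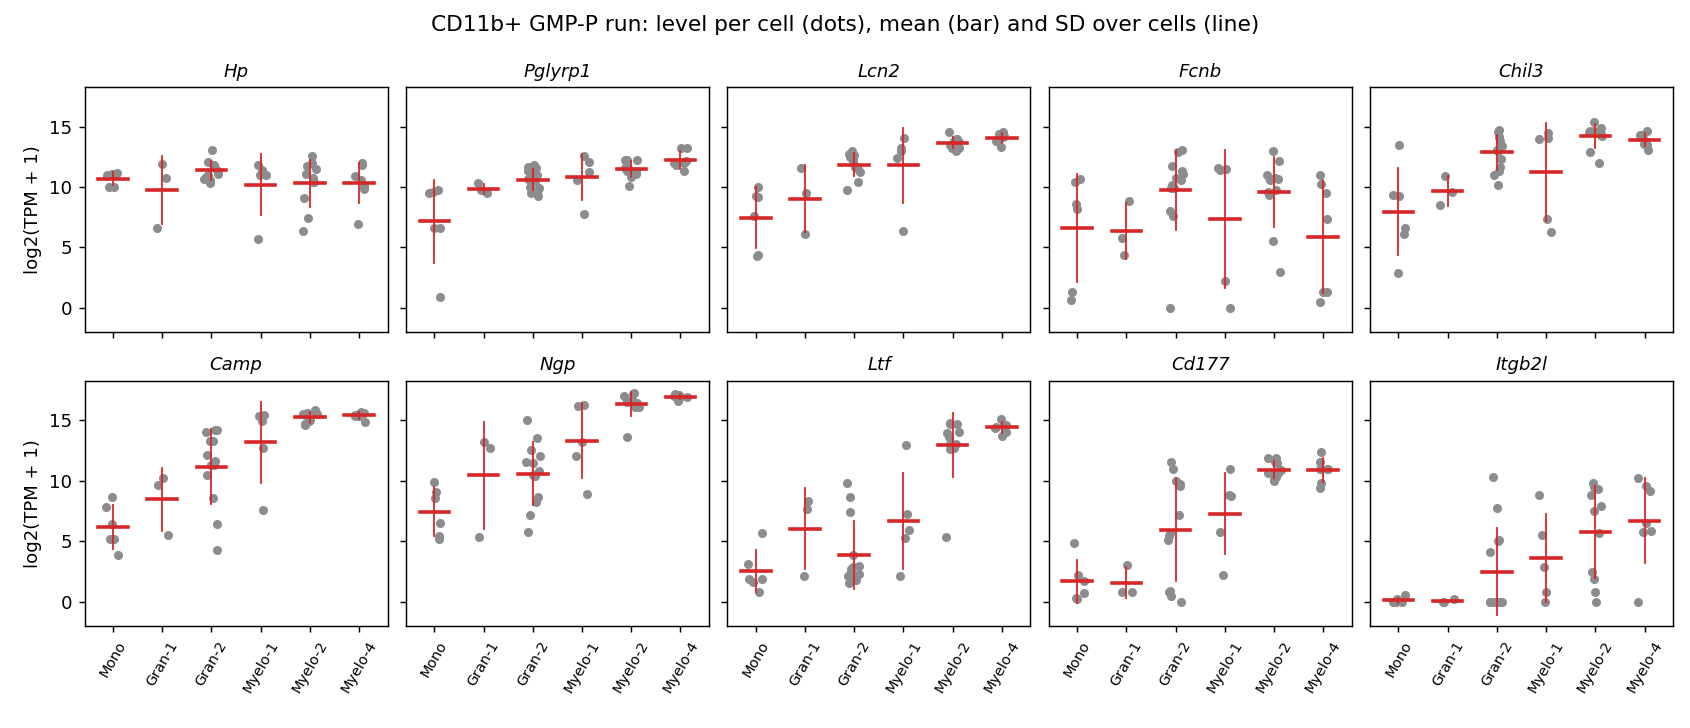
Level (log2(TPM + 1)) of each gene in single cells of the CD11b+ GMP-P run (grey dots) by state, with the mean (red bar) and SD over cells (red line); the single Myelo-3 cell is left out. Ltf has a mean of 12.97 in Myelo-2 and 3.88 in Gran-2, and Fcnb has its lowest mean, 5.88, in Myelo-4.

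Among the iron and heme binding members, Ltf had the largest difference between Myelo-2 and Gran-2. It ran from 40.1 TPM through a median of 12765 TPM to 28840 TPM in 11 Myelo-2 cells, and from 1.88 TPM through 5.62 TPM to 900.7 TPM in 13 Gran-2 cells, a difference of 9.09. The groups overlapped only through the Myelo-2 cell at 40.1 TPM, the next Myelo-2 cell being at 6191 TPM. That cell also had the lowest Ngp of its state, 12967 TPM, and the highest Fcnb, 8024 TPM. Lcn2 had a mean of 13.66 ± 0.45 in Myelo-2 and 11.86 ± 0.94 in Gran-2, a difference of 1.81. Hp differed by −1.07, with 80.1 to 6228 TPM in Myelo-2 cells and 1264 to 8662 TPM in Gran-2 cells.

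Among the antimicrobial members, Ngp had the highest mean level of the set in Myelo-2 cells, 16.35 ± 0.98, whereas in Gran-2 cells Chil3 did, at 12.87 ± 1.46. Ngp ran from 12967 TPM through 93870 TPM to 153999 TPM in Myelo-2 cells, and from 53.8 TPM through 1779 TPM to 33859 TPM in Gran-2 cells, a difference of 5.75. Camp ran from 24874 TPM through 47406 TPM to 58066 TPM in Myelo-2 cells, all above the highest Gran-2 cell at 19344 TPM, a difference of 4.09. Pglyrp1 had means of 11.51 ± 0.69 in Myelo-2 and 10.62 ± 0.87 in Gran-2, a difference of 0.89. Camp thus separated the states completely, Ngp overlapped through 1 Myelo-2 cell and 1 Gran-2 cell, and Pglyrp1 overlapped widely.

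Neither lectin reached the threshold. Chil3 differed by 1.35 between Myelo-2 and Gran-2 and Fcnb by −0.20, with Fcnb means of 9.56 ± 2.89 in Myelo-2 and 9.77 ± 3.34 in Gran-2. Chil3 has a near-identical neighbour gene, Chil4, detected here in 17 cells, and reads of the pair could be split between them, so its values are uncertain. The surface genes both passed the threshold, but not with the log2 ratio of mean TPM (Cd177 1.81, Itgb2l 1.27). Cd177 ran from 1018 TPM through 1609 TPM to 3863 TPM in Myelo-2 cells and from 0 through 49.1 TPM to 2990 TPM in Gran-2 cells, a difference of 4.95. Itgb2l ran from 0 through 178.4 TPM to 910.2 TPM in Myelo-2 cells and from 0 through a median of 0 to 1276 TPM in Gran-2 cells, a difference of 3.31. In all, 5 of 10 members were higher in Myelo-2 by 2 or more and none lower, beside 1.41% of 7887 genes higher and 18% lower. With that ratio 3 members, Ltf, Ngp and Camp, were higher by 2 or more. Of 6 eosinophil genes only Ear2 was kept in this comparison, and it was higher in Myelo-2 by 5.30, while the defining genes Epx and Prg2 were at 0 in every cell of both states; its part in the result was not tested.

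Myelo-1 cells were mixed. The 5 cells had Ngp at 479.0, 4227, 9339, 76678 and 78548 TPM and Camp at 186.0, 6701, 31398, 41439 and 44143 TPM. Ltf in them was 3.48, 37.0, 58.6, 149.3 and 7947 TPM, each list given from low to high. The 3 highest Camp values lay within the Myelo-2 range, while 1 Ltf value passed 6191 TPM, the second lowest of Myelo-2, and that cell was among the 3. Fcnb was at 0 and 3.70 TPM in 2 of the cells and at 2755, 2919 and 3042 TPM in the other 3. In the cell with Fcnb at 3.70 TPM Hp was lowest too, at 51 TPM, while Camp was 41439 TPM. Myelo-1 minus Gran-2 gave 3 members higher by 2 or more, Ltf (2.82), Ngp (2.73) and Camp (2.03), and 1 lower, Fcnb (−2.42), beside 2.48% of 8591 genes higher and 14.9% lower. Both the Camp call (1.98 and 1.85) and the Fcnb call (−1.71 and −0.46) ended with a pseudocount of 10 and with the ratio of mean TPM. Of 3 macrophage genes kept, 2 were lower in Myelo-1 by 2 or more, with a median difference of −4.40, and the list summed to 0 to 70.45 TPM in Myelo-1 cells and 0 to 1094 TPM in Gran-2 cells.

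Myelo-4 was set against Myelo-2 next. No member was higher in Myelo-4 by 2 or more and 1, Fcnb, was lower, beside 2.66% of 6511 genes higher and 10.9% lower. Fcnb was 0.42, 1.45, 1.49, 157.8, 715.1, 1237 and 2010 TPM in the 7 Myelo-4 cells, and ran from 6.90 TPM through 1487 TPM to 8024 TPM in 11 Myelo-2 cells, a difference of −3.69. The 3 Myelo-4 cells under 2 TPM lay below every Myelo-2 cell, and the other 4 lay within the Myelo-2 range. By the log2 ratio of mean TPM Fcnb was lower by less than 2. Ltf (1.46), Itgb2l (0.92), Pglyrp1 (0.73) and Ngp (0.61) were higher without reaching the threshold. Ngp was narrow in Myelo-4, 98575 to 146375 TPM. In late July GMP, Fcnb was also the 1 member lower, by −2.69, and none was higher, beside 6.08% of 7500 genes higher and 15.6% lower. Its values were 151.6, 268.8 and 1600 TPM in the 3 Myelo-4 cells, against 1345 to 4981 TPM in the 7 Myelo-2 cells of that set. The 2 run names of late July GMP were not spread evenly over these states. The Myelo-4 cells at 151.6 and 1600 TPM and 1 Myelo-2 cell, at 3307 TPM, had the name with 3 cells. State and run name are thus partly tied there. Only the highest Myelo-4 cell reached the Myelo-2 range there. In both sets of cells, 1 of 10 members lower was no more than the share of all genes lower.

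The highest means of the members lay in different states of the CD11b+ GMP-P run, mostly by less than the larger SD of the states compared. Fcnb and Hp had their highest mean in Gran-2, Chil3 and Cd177 in Myelo-2, and Camp, Ngp, Ltf, Lcn2, Itgb2l and Pglyrp1 in Myelo-4. For Chil3 (13.92 ± 0.54 in Myelo-4, 14.23 ± 0.96 in Myelo-2) and Camp (15.43 ± 0.27 in Myelo-4, 15.26 ± 0.44 in Myelo-2) the difference was smaller than the spread of cells, and for Cd177 it was −0.02. Myelo-4 minus Myelo-2 was 1.46 for Ltf, 0.61 for Ngp, 0.41 for Lcn2 and 0.92 for Itgb2l. The SDs of these genes in Myelo-2 were larger, at 2.65, 0.98, 0.45 and 3.80, and in Myelo-4 they were 0.44, 0.19, 0.41 and 3.49. For Pglyrp1 the difference was 0.73, larger than its SDs of 0.69 in Myelo-2 and 0.72 in Myelo-4. Fcnb had means of 9.77 ± 3.34 in Gran-2 and 9.56 ± 2.89 in Myelo-2. Hp had means of 11.37 ± 0.76 in Gran-2 and 10.68 ± 0.53 in Mono. The Spearman correlation of each member with the mean of the other 9 over the 46 cells was 0.90 for Lcn2, 0.86 for Camp, 0.82 for Ngp, 0.77 for Cd177, 0.74 for Pglyrp1, 0.73 for Chil3, 0.70 for Ltf and 0.69 for Itgb2l. It was 0.16 for Fcnb and −0.02 for Hp. Cells share a run and a fixed TPM total, so these are descriptions.

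The 13 late July GMP cells were 2 Gran-1, 1 Gran-2, 7 Myelo-2 and 3 Myelo-4 cells. Their 2 Gran-1 cells held 4 and 6 members at 100 TPM, with Ngp at 5.36 and 73 TPM and Camp at 638.0 and 531.7 TPM. The single Gran-2 cell had Ngp at 10492 TPM and Ltf at 6491 TPM but Cd177 at 0.71 TPM and Itgb2l at 0.84 TPM. Of the 7 Myelo-2 cells 4 held all 10 members at 100 TPM and 2 had Itgb2l at 0. In the order of their own counts, 11 of the 13 cells were nested at 1 TPM, with 63 of 66 discordant cases following it, and all 13 at 100 TPM, with 100 of 100.

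The order of other GMP at 1 TPM was read in the other cells at 100 TPM, limited to the 5 members that other GMP held in more than 1 cell. It held in 51 of 82 discordant cases (62.2%) of the CD11b+ GMP-P run and in 6 of 6 of late July GMP. Those 5 members were held by 34 to 43 of 46 CD11b+ GMP-P cells. Read at 1 TPM, the same order held in 13 of 20 cases of the CD11b+ GMP-P run. The order of the CD11b+ GMP-P run at 100 TPM was also read in the other cells, with all 10 members. It held in 93 of 100 cases of late July GMP at 100 TPM. In other GMP it held in 737 of 810 cases at 100 TPM and in 934 of 1045 at 1 TPM. Ngp, Ltf, Cd177 and Itgb2l were at 0 in every cell of other GMP, so each case with 1 of them could go only 1 way. These readings were chosen after the data were seen.

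Other granule genes were read beside the members. Of 12 genes on a primary granule list, 11 were lower in Myelo-2 than in Gran-2 by 2 or more, with a median difference of −4.39. Over all 7887 genes kept, 1.41% were higher in Myelo-2 by 2 or more and 18% lower. Ctsg, the cathepsin G gene, had means of 3.68 ± 3.70 in Myelo-2 and 11.03 ± 0.87 in Gran-2, a difference of −7.35, and Mpo had means of 8.80 ± 2.36 in Myelo-2 and 14.19 ± 0.62 in Gran-2, a difference of −5.39. Nkg7 (−5.51) lay between these and Gstm1 (−5.05) below them in size. Both were on the list but are not taken here as genes of primary granule contents. Of 23 measured genes of other secondary and tertiary granule proteins 18 were kept, and 6 were higher in Myelo-2 by 2 or more and 1 lower. Their median difference was 0.99, beside 2.56 for the members and −0.83 for all genes kept. Lyz2, a lysozyme gene, had means of 13.64 ± 0.93 in Myelo-2 and 8.46 ± 3.77 in Gran-2, a difference of 5.18. Mmp8, the neutrophil collagenase gene, had means of 11.01 ± 0.85 in Myelo-2 and 7.50 ± 3.56 in Gran-2, a difference of 3.51. Retnlg (4.97) and Mmp9 (3.68), the gelatinase B gene, were higher from lower levels. Of 14 regulators 13 were kept. None was higher by 2 or more and 2 were lower, Per3 (−2.92) and Gfi1 (−2.53), a share under the 18% of all genes kept. Ets1 (1.62) and Cebpd (1.32) lay above 0. Mean Cebpe in the CD11b+ GMP-P run was 1.40 in Mono, 3.97 in Gran-2, 4.99 in Myelo-2 and 4.38 in Myelo-4, with SDs of 1.76 to 2.74. The smaller states did not lie on a steady rise. Single-cell log2(TPM + 1) values of Cebpe were 0, 0 and 3.79 in Gran-1, and 0, 0, 0, 7.22 and 7.55 in Myelo-1.

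Genes outside the set with the most similar pattern over the 46 CD11b+ GMP-P cells were found by Spearman correlation with the members' mean among 7544 genes. They were S100a8 (0.85) and S100a9 (0.81), the calprotectin chains, Lyz1 (0.76), Tmsb4x (0.75), Lyz2 (0.75), Plbd1 (0.74), Actb (0.74) and C5ar1 (0.73), the complement C5a receptor gene. In the 13 late July GMP cells the same correlations ran from 0.35 for Tmsb4x to 0.63 for Plbd1. S100a8 had means of 10.10 ± 2.86 in Mono, 15.57 ± 1.24 in Gran-2, 16.94 ± 0.46 in Myelo-2 and 17.20 ± 0.24 in Myelo-4. Plbd1, a granule phospholipase-like gene, was at 0 in all 6 Mono cells and had means of 0.25 ± 0.41 in Gran-2, 6.57 ± 3.42 in Myelo-2 and 7.67 ± 2.85 in Myelo-4. S100a8 was thus high in Gran-2, where Ltf and Plbd1 were low.

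Markers of other cell types were read beside these states. Erythroid and megakaryocyte genes summed to at most 1.02 TPM in any Gran-2, Myelo-2 or Myelo-4 cell of the CD11b+ GMP-P run, and B lineage genes were at 0 in Myelo-2 and Myelo-4. Eosinophil genes, 2 of 6 detected in Myelo-4 and 1 of 6 in Myelo-2, had a median sum of 105.1 TPM in Myelo-4 cells and 152.3 TPM in Myelo-2 cells, with maxima of 2294 and 1184 TPM. Basophil and mast cell genes, 1 of 8 detected in Myelo-4 and 3 of 8 in Myelo-2, had maxima of 2129 TPM in Myelo-4 and 1524 TPM in Myelo-2. Their median sums were 730.2 TPM in Myelo-4, 306.3 TPM in Myelo-2 and 516.2 TPM in Gran-2. Macrophage genes, 1 of 7 measured ones in Myelo-4 and 2 of 7 in Myelo-2, had maxima of 607.4 TPM in Myelo-4 and 963.5 TPM in Myelo-2. The median sums of this list were 70.1 TPM in Myelo-4 and 131.6 TPM in Myelo-2. In Gran-2 cells 3 of 7 macrophage genes were detected, with a median sum of 428.8 TPM. Their part in the results was not tested.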

How the data were processed

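Single-cell RNA-seq values were taken as deposited. Per the submitters' processing notes, Bowtie2, RSEM and the mm9 build were used, with tool versions not given in the sources used here. The authors deposited log2 expression, which turns back into TPM (2 raised to the value, less 1) summing to between 999517 and 1001450 per cell; 81.7% of values were 0. A second table of the authors gave other, non-numeric values, 1 of 12 state names per cell. No column of per-sample values was left out.

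From these, TPM at 1 or more counted as held, with 0, 10 and 100 as alternatives. Differences are of mean log2(TPM + 1) between states within 1 set of cells, and late July GMP pools 2 run names. They are taken over genes held by 10% or more of the cells of either state, and called at 2. The filter can pass a gene through the state where it is high. Exact binomial intervals are at 95%, and the limit for a share of 0 rests on 3 cells. Members are ranked by the cells that hold them; a discordant case is a cell with 1 gene of a pair. No animal is named, so no test was run. No doublet caller was run. The highest correlation of 2 cells over genes was 0.728, so no pair of libraries held the same values. Members and lists were chosen with earlier results of these data known. Named genes are the members, Cebpe, Gfi1, Irf8, Mpo and Elane, up to 4 genes of each granule and regulator list with the largest Myelo-2 minus Gran-2 difference, and the 8 genes most correlated with the members. Chi3l1 and Adgre1 were not among the measured symbols. The ranking and difference steps were tested on simulated data. Python 3.11.15, numpy 2.4.6, pandas 2.3.3, scipy 1.17.1 and matplotlib 3.10.9 were used.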

Additional observations from a re-analysis of the deposited data

Results flagged for a closer look

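In groups of 4 to 10 cells of 1 state and set of cells, 6 of 48 combinations of gene and group had 1 cell far from the rest. Its gap to the nearest cell passed Dixon's 95% limit, and chance gives about 1 in 20. Cells of 1 run are not replicates. All values are log2(TPM + 1). In the CD11b+ GMP-P run, Pglyrp1 was 0.89 in 1 Mono cell, while the other 5 had 6.58 to 9.76. Lcn2 was 6.35 in 1 Myelo-1 cell and 12.44 to 14.02 in the other 4, and this was also the Myelo-1 cell with Fcnb at 0 and the lowest Camp and Ngp. Hp was 5.70 in another Myelo-1 cell and 10.97 to 11.80 in the other 4, although that cell had 41439 TPM of Camp. Camp was 14.88 in 1 Myelo-4 cell and 15.39 to 15.71 in the other 6. Hp was 6.97 in another Myelo-4 cell and 9.87 to 12 in the other 6. In other GMP, Pglyrp1 was 5.14 in 1 cMoP cell and 0 in the other 4.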

How the results depend on the processing

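Over 134 alternative values of 27 results, 102 were labelled the same and 32 moved. Medians were the same within the SD over cells, shares within their exact interval and counts within a fixed ratio. Turns of sign had no label here and were not counted. The level at which a gene counts as held gave part of these moves. In the CD11b+ GMP-P run the median number of members per Mono cell was 8 at 1 TPM, 9 above 0, 7 at 10 TPM and 4 at 100 TPM. For Gran-2 it was 9, and 8 at 10 and at 100 TPM; for Myelo-2 and Myelo-4 it was 10, and 9 at 100 TPM. Cells with part of the members in that run numbered 25, and 40 at 100 TPM. Discordant cases with the rank in all cells made up 96.63%, against 97.72% above 0, 92.62% at 100 TPM and 98.2% without the CD11b+ GMP-P run; leaving out other GMP kept 27 of 45 pairs in order. In the CD11b+ GMP-P run they made up 97.12%, against 99.45% above 0 and 86.54% at 100 TPM, where 29 of 45 pairs kept their order. A pair tied in 1 reading and not in the other counted as not kept. Camp, Chil3, Hp, Lcn2 and Ngp were tied at 1 TPM in that run, so many pairs not kept were ties and not turned round.

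Counts of members higher by 2 or more moved as follows. A threshold of 1 gave 5 instead of 3 for Myelo-1 minus Gran-2 (and 3 lower instead of 1). It gave 1 instead of 0 for Myelo-4 minus Myelo-2 in the CD11b+ GMP-P run and in late July GMP. For Gran-1 minus Mono and Gran-1 minus MP in other GMP it gave 5 instead of 2. A pseudocount of 0.1 gave 4 for each of those last 2, and 1 for Myelo-4 minus Myelo-2 in late July GMP. A pseudocount of 10 gave 1 for Gran-1 minus Mono, 0 for Gran-1 minus MP and 0 lower for Myelo-1 minus Gran-2. Upper quartile scaling gave 4 for Gran-1 minus MP. The log2 ratio of mean TPM gave 3 for Myelo-2 minus Gran-2, 1 for Gran-1 minus Mono in other GMP, and 0 lower for Myelo-1 minus Gran-2 and Myelo-4 minus Myelo-2 in the CD11b+ GMP-P run. The cause of these moves was not tested. Gran-2 minus Mono gave counts of 7 to 9, with members exchanged as stated above. Comparisons within late July GMP and of Gran-1 minus Mono in the CD11b+ GMP-P run were added after the data were seen. Sequencing depth is unknown, each compared state rests on 3 to 32 cells, and 1 sample per population allows no replicate check. No paired analysis was possible because the labels number cells and not replicates of the populations.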
